A study of Mus musculus with 15 samples.

Results

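The subject here is the set of 39 Hox genes of the 4 mouse Hox clusters, taken as every gene of the deposited expression table whose symbol is Hox followed by a cluster letter from a to d and a paralogue number. They are 39 of 54495 genes in the table, 11 in HoxA, 10 in HoxB, 9 in HoxC and 9 in HoxD. Polyadenylated RNA was sequenced from 15 libraries of mouse embryonic fibroblasts (MEFs), which are primary cells grown out of whole or partly dissected embryos, here harvested at e13.5. The medium was DMEM plus 10% FBS, and cells grew at 37 °C under 3% O2 and 5% CO2. Every group, controls included, lacked mTR, the gene for the RNA component of telomerase, and Wrn, the helicase gene lost in Werner syndrome. DM libraries had the genotype mTR-/-Wrn-/-p53WT, with normal p53, and TM libraries the genotype mTR-/-Wrn-/-p53N236S/N236S, with the point mutant p53 N236S on both alleles. The mice were of generation 1, 3 or 5 (G1, G3, G5), successive generations without telomerase, over which telomeres shorten. The groups G1DM, G1TM and G3DM had 2 libraries apiece, while G3TM, G5DM and G5TM had 3 apiece. MEFs with wild-type and p53S backgrounds, which the study's design names as controls, are not analysed here, so loss of mTR and Wrn has no comparison in these values. The labels do not say that replicates came from separate embryos or cultures, so each p-value measures only the spread between these libraries. In G1DM, G5DM and G5TM the replicates differed in Xist and Y-linked RNA, so they did not all come from 1 embryo, while in the other 3 groups the spread may be technical.

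Hox genes encode homeodomain transcription factors that give cells their position along the head-to-tail axis and, in the limb, along the shoulder-to-digit axis. Within a cluster they lie in paralogue order, and low-numbered genes at the 3′ end are used early and towards the head while high-numbered genes at the 5′ end are used later, towards the tail and the tip of the limb. Fibroblasts keep a Hox pattern of the body part they came from in culture, so the mixture of body parts in a MEF culture shows in its Hox levels, and in bulk RNA fewer cells of a type and less RNA per cell cannot be told apart.

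Levels are given in FPKM, fragments scaled to transcript length and library size, which are per length and so comparable between genes. The libraries held between 17448588 and 29571111 reads assigned to genes, as read from the steps in the FPKM values. Expression was compared with limma on log2(FPKM + 1) over 13562 genes with at least 1 FPKM in at least 2 libraries, and a gene was called at a Benjamini-Hochberg adjusted p under 0.05 over all of them. Differences below are on that log2(FPKM + 1) scale, which understates the change of low genes, and errors are standard errors. Of the 39 Hox genes, 35 were tested: 19 of 23 genes of paralogues 1 to 8 and 16 of 16 genes of paralogues 9 to 13. Of the fibroblast genes, Col1a1, a collagen chain, was between 973 and 2158 FPKM in all 15 libraries and Vim, vimentin, between 620 and 1327 FPKM. Others were lower in some libraries, with Dcn between 0.838 and 29.2 FPKM and Pdgfra between 6.98 and 42.1 FPKM. The erythroid gene Hbb-bs was listed at 0 throughout. Some markers of other cell types were high in some libraries, with the neural marker Tubb3 at up to 240.8 FPKM and the macrophage marker Lyz2 at up to 233.3 FPKM.

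Libraries stood apart in 3 ways that touch the results. All 6 G3TM and G5TM libraries differed from the other 9 in genes such as Rpl12, a ribosomal protein gene, at 300.4 to 609.7 FPKM against 3.84 to 6.77 FPKM, and mt-Rnr2, the mitochondrial large ribosomal RNA, at 44.7 to 73.6 FPKM against 1.48 to 3.76 FPKM. Every TM to DM difference in G3 and G5, and every change from G1 within TM, crosses that division, and genotype and this difference between library sets cannot be told apart there. The other 2 ways are the sex of the cells and 1 library without most Hox RNA. Both G3DM libraries had Xist and no Y-linked RNA and all 3 G3TM libraries the reverse, and in G3 the effect of genotype and that of sex cannot be told apart. Both G1TM libraries also had Xist and no Y-linked RNA, so generation and sex cannot be told apart from G1TM to G3TM. G5DM replicate 1, which had Xist RNA where replicates 2 and 3 had Y-linked RNA, had a summed Hox level of 10.1 FPKM against 105 to 222 FPKM in the other 14 libraries, and counts of called Hox genes are given below with and without it. Leaving it out also leaves G5DM with Y-linked RNA only, against G3DM with Xist RNA only, so generation and sex cannot be told apart in G5DM against G3DM without it.

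In the 14 other libraries, 21 to 34 of the 39 Hox genes reached 1 FPKM. HoxB gave the largest cluster sum in most of them, with a range of 33.4 to 84.1 FPKM, HoxA gave 24.2 to 60.3 FPKM, HoxC 21.8 to 60.5 FPKM, and HoxD 4.26 to 31.9 FPKM, the lowest sum in each of the 14 but G3TM replicate 1, where HoxC was lowest. The map of levels by gene shows 2 ridges, at paralogues 5 to 6 and at paralogues 9 to 10. The 4 genes that were not tested stayed under the expression minimum. Hoxb1, a hindbrain gene, reached at most 0.0237 FPKM, Hoxd1 at most 0.336 FPKM and Hoxd3 at most 0.886 FPKM. Hoxd4 was listed at 0 in all 15 libraries, and 52.3% of its exonic bases, like 62.4% of those of Hoxd3, are shared with a gene on the same strand, so reads of these 2 genes could have been left unassigned and their values are uncertain.

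**Figure D1:**
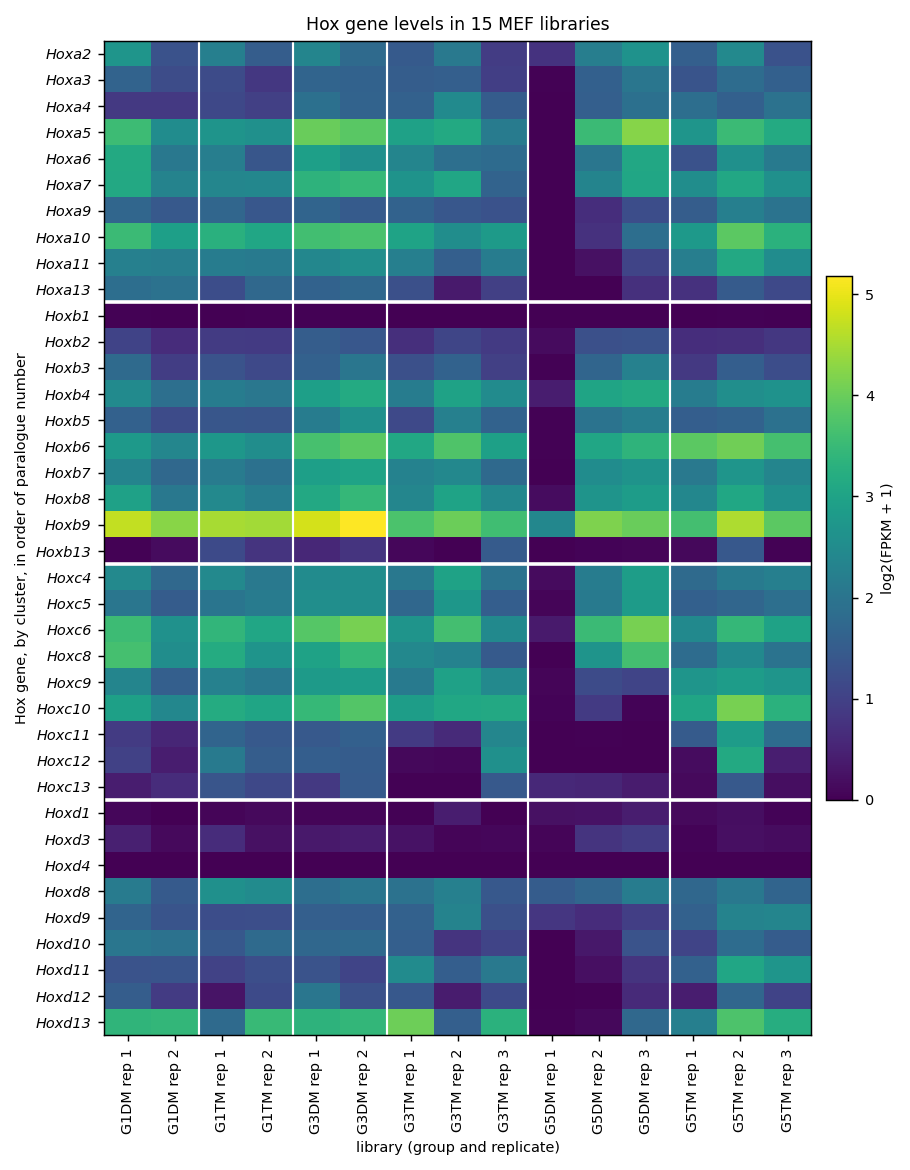
Colour gives log2(FPKM + 1) for 38 of the 39 Hox genes (vertical axis, by cluster and paralogue number) in each of the 15 libraries (horizontal axis, by group and replicate). The column of G5DM replicate 1 is dark for nearly all genes, and the other 2 G5DM columns are dark from paralogue 9 or 10 onwards in HoxA, HoxC and HoxD.

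The highest gene of each cluster by its mean over all libraries was Hoxa5, Hoxb9, Hoxc6 or Hoxd13. Hoxb9, which patterns the thorax and rib cage, was the highest Hox gene of all, with 24.9 and 18.0 FPKM in the G1DM libraries, 21.7 and 20.8 in G1TM, 27.5 and 35.1 in G3DM, 12.0, 15.1 and 10.9 in G3TM, 4.28, 17.1 and 15.0 in G5DM, and 11.4, 22.3 and 13.6 in G5TM. It was highest in G3DM, and G3DM did not overlap with any other group. Hoxa5, which acts in the neck and lung mesenchyme, was at 10.8 and 4.70 FPKM in the G1DM libraries, 5.39 and 5.07 in G1TM, 14.8 and 13.4 in G3DM, 6.83, 7.78 and 3.44 in G3TM, 0, 10.5 and 17.9 in G5DM, and 5.52, 10.6 and 7.99 in G5TM. The 0 belonged to G5DM replicate 1, while G5DM replicate 3 held the highest value of all libraries.

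Hoxc6, a gene of the thoracic region, was at 10.7 and 5.16 FPKM in the G1DM libraries, 9.56 and 7.36 in G1TM, 13.1 and 16.2 in G3DM, 5.41, 11.4 and 4.51 in G3TM, 0.299, 10.6 and 16.3 in G5DM, and 4.45, 9.95 and 6.87 in G5TM. It shared the pattern of Hoxa5, lowest in G5DM replicate 1 and highest in G5DM replicate 3. Hoxd13, which shapes the digits and the genital tubercle, was at 9.43 and 9.82 FPKM in the G1DM libraries, 2.44 and 10.3 in G1TM, 9.13 and 9.76 in G3DM, 15.3, 1.97 and 8.91 in G3TM, 0.0223, 0.0744 and 2.35 in G5DM, and 3.70, 12.2 and 8.32 in G5TM. It varied widely within the TM groups, and all 3 G5DM libraries lay below every G5TM library.

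Summed by paralogue number, the profile rose to a first peak at paralogue 6 and a second at paralogue 9 in each of the 12 libraries outside G5DM. The sum for paralogue 13 was above that for paralogue 12 in all of them, at 2.30 to 17.4 FPKM. In G5DM replicates 2 and 3 the peak at paralogue 6, at 21.0 and 33.2 FPKM, was within the 12.5 to 34.8 FPKM of the other 12 libraries, but the sum for paralogue 10 was 1.76 and 4.16 FPKM against 13.0 to 32.6 FPKM. For paralogue 11 it was 0.358 and 1.803 FPKM against 4.43 to 21.4 FPKM.

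**Figure D2:**
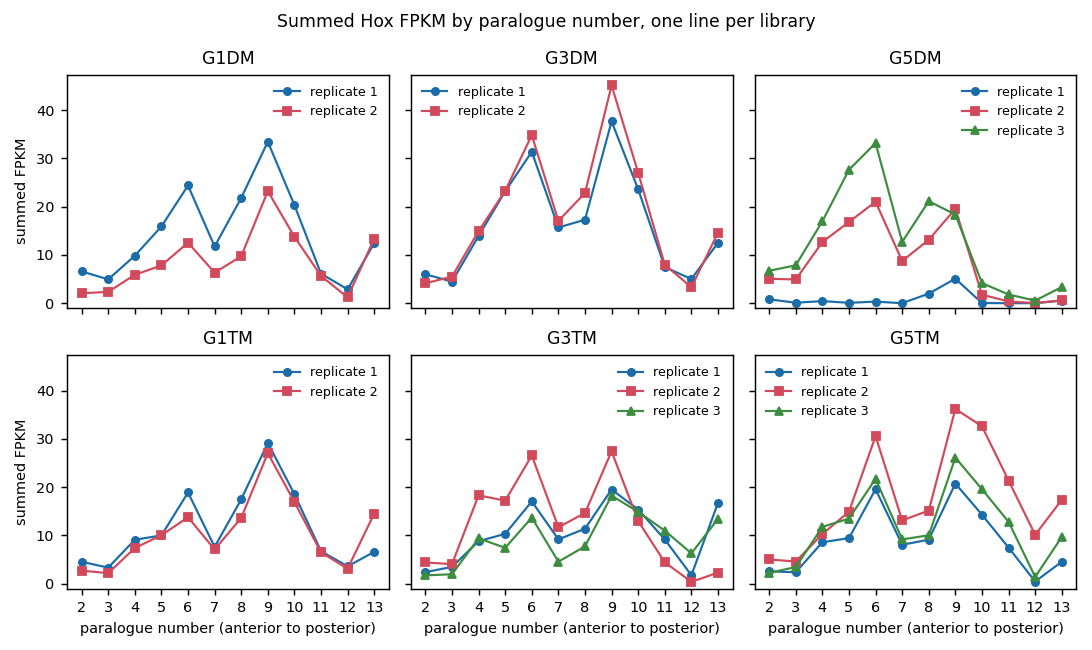
Summed FPKM of all Hox genes with the same paralogue number (vertical axis) by paralogue number from 2 to 13 (horizontal axis), 1 panel per group and 1 line per library. G5DM replicate 1 runs near 0 except at paralogue 9, and G5DM replicates 2 and 3 keep the peak at paralogue 6 and fall to 1.76 and 4.16 FPKM at paralogue 10.

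G5DM replicate 1 had little Hox RNA from any of the 4 clusters. Of the 35 tested genes, 16 had no read in it, 8 had 1 to 3 reads and 11 had 4 or more, and 456 reads in all fell on Hox genes against 4120 to 11217 in the other libraries. A count of 0 allows up to 3 reads, which is 0.0298 to 0.19 FPKM for these 16 genes, and for 11 of the 16 all other 14 libraries were above that limit. It held the lowest value of the 15 libraries for 27 of 35 tested genes, where 3.75% of all tested genes had their lowest value in it. For 28 of the 35 its level was under 10% of the median of the other 14, against 1.92% of all tested genes.

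What was left of the Hox RNA in G5DM replicate 1 was not spread evenly along the clusters. Only Hoxb9, at 4.28 FPKM, and Hoxd8, at 1.86 FPKM, reached 1 FPKM. In HoxA, Hoxa2, a hindbrain and pharyngeal arch gene, was at 0.687 FPKM, 23.8% of the median of the other 14, while Hoxa3 was at 0.0184 FPKM and every gene from Hoxa4 to Hoxa13 had no read. In HoxD, Hoxd8 was at 63.3% and Hoxd9 at 38.4% of that median, and Hoxd10, Hoxd11 and Hoxd12 had no read. At the 5′ end of HoxC, Hoxc13, a hair and nail gene, was at 0.518 FPKM, 99.0% of the median, while Hoxc4 to Hoxc10 were at most 3.07%. In HoxB, Hoxb9 was at 24.4% and Hoxb2, far from it in the cluster, at 13.1%. These genes at 10% or more were singled out after their values were seen.

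**Figure D3:**
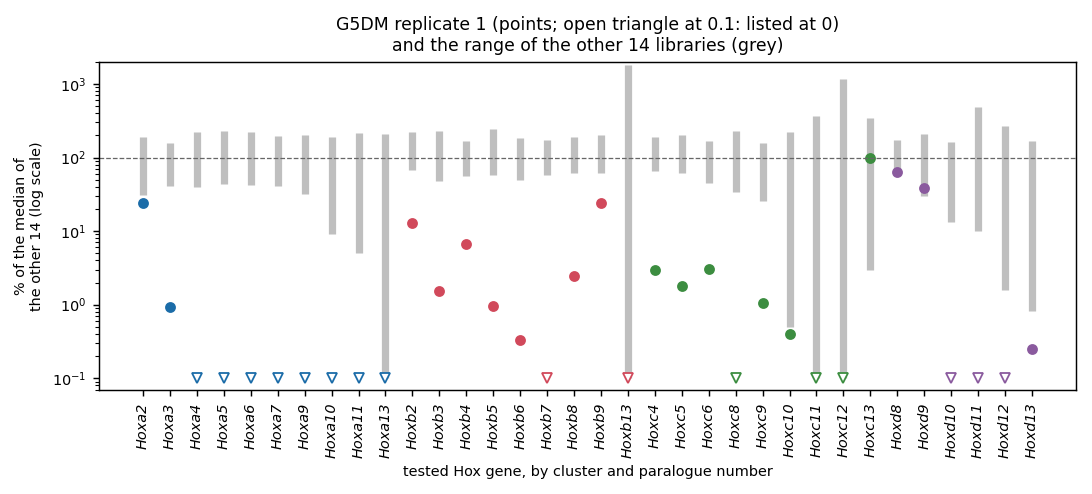
Level in G5DM replicate 1 as a percentage of the median of the other 14 libraries (vertical axis, log scale) for 34 of the 35 tested Hox genes by cluster and paralogue number, with an open triangle at 0.1 where no read was listed and grey bars for the range of the other 14 libraries, drawn down to 0.1 where that range reaches 0. Hoxa2, Hoxb2, Hoxb9, Hoxc13, Hoxd8 and Hoxd9 lie at 10% or more, and the other 28 genes drawn lie below.

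The promoters of 4 HoxA genes are printed because they stand for the 3 behaviours in G5DM: Hoxa2 kept part of its RNA in replicate 1, Hoxa5 had no read in replicate 1 and was high in replicates 2 and 3, and Hoxa10 and Hoxa11 were low in all 3. HoxA lies at chr6:52155590-52260880 on the - strand of GRCm38. Each window runs from 250 bases before to 50 bases after the start listed by RefSeq (GRCm38.p6), 300 bases in all, with each CG dinucleotide in capitals.
Hoxa2 promoter, chr6:52164782-52165081, - strand: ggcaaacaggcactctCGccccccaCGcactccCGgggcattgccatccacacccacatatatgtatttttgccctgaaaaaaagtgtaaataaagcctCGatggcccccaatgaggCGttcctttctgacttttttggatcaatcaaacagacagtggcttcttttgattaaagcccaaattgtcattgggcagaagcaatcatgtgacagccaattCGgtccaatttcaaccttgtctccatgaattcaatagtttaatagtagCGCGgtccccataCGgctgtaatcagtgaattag
Hoxa5 promoter, chr6:52204538-52204837, - strand: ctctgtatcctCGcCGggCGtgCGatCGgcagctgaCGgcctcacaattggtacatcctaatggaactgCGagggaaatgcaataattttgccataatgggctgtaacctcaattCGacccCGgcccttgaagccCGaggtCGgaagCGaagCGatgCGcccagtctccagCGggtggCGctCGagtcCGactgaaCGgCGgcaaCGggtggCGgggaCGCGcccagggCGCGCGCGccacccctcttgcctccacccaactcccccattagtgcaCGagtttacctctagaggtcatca
Hoxa10 promoter, chr6:52240805-52241104, - strand: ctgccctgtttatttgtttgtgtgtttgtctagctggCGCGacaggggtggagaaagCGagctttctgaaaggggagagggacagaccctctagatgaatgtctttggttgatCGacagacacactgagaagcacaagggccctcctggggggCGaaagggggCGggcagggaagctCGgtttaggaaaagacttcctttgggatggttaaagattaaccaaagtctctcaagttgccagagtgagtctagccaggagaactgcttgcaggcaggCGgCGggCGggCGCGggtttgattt
Hoxa11 promoter, chr6:52245761-52246060, - strand: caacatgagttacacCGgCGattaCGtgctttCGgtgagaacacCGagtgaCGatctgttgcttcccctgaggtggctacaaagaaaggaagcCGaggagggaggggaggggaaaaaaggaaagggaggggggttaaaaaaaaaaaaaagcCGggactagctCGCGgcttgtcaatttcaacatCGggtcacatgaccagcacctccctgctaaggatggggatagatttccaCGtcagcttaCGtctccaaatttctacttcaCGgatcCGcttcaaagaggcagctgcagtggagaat
The windows held 9 CG dinucleotides for Hoxa2, 29 for Hoxa5, 12 for Hoxa10 and 15 for Hoxa11. Over the 24 RefSeq windows that matched 22 of the 39 Hox genes the median was 14.5, with a range of 4 to 45, and over all 32851 RefSeq promoter windows it was 7. Both strands were searched for the TATA motif TATAAA, the Pbx and Hox motif TGATTNAT and the retinoid receptor motif AGGTCA, none of which contains another. They were found in 4, 2 and 7 of the 24 Hox windows, against 13.6%, 3.22% and 16.3% of all windows. Hoxa10 has another RefSeq window, chr6:52234890-52235189, not printed, with 21 CG dinucleotides and TATAAA, which the printed window lacks.

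Posterior genes were low in all 3 G5DM libraries, not in replicate 1 alone. Paralogues 10 to 13 made up 5.64%, 2.57% and 6.31% of summed Hox FPKM in G5DM replicates 1, 2 and 3, and between 13.8% and 41.2% in the other 12 libraries, so G5DM did not overlap with any other group. For paralogues 9 to 13 together the shares were 56.0%, 21.0% and 18.1%, against 32.7% to 57.6% in the other 12, so replicate 1 lay within their range and replicates 2 and 3 below it. Leaving Hoxb9 out of that sum gave 23.6%, 5.81% and 9.37%, against 24.9% to 53.0%. Paralogues 9 to 13 were the planned block, and neither the cut at paralogue 10 nor the sum without Hoxb9 was planned. The mean paralogue number weighted by FPKM was 6.22 and 6.27 in G5DM replicates 2 and 3, 7.50 in replicate 1, where Hoxb9 gave 4.28 of 10.1 FPKM, and 6.87 to 8.53 in the other 12. The total Hox levels of replicates 2 and 3, 106 and 156 FPKM, lay within the 105 to 222 FPKM of the 12 libraries outside G5DM. There were 9 genes that lay below all 12 other libraries in all 3 G5DM libraries, Hoxa9, Hoxa10, Hoxa11, Hoxc9, Hoxc10, Hoxc11, Hoxc12, Hoxd9 and Hoxd11, all of paralogues 9 to 12, where 1.16% of all tested genes did so. No Hox gene lay above all others in G5DM.

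**Figure D4:**
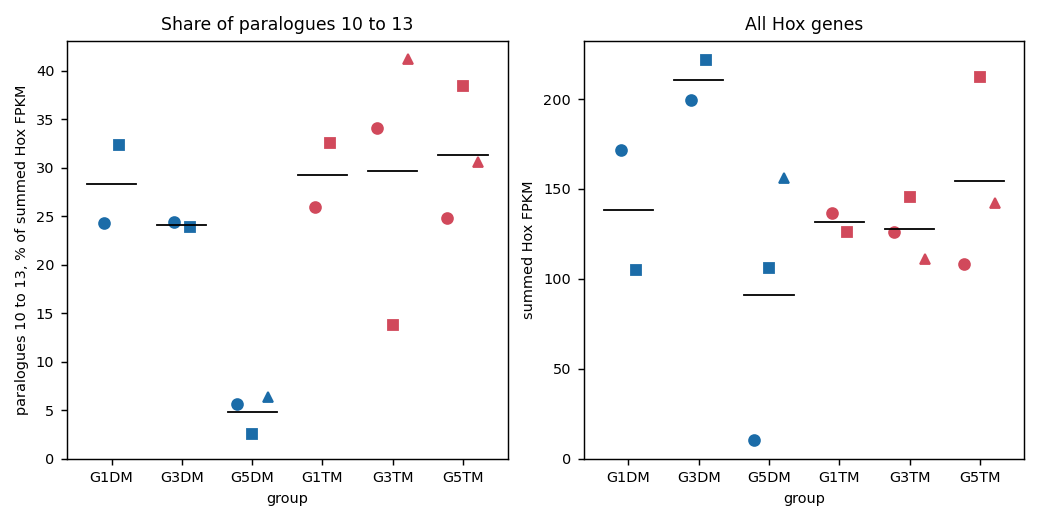
The left panel plots the share of paralogues 10 to 13 in summed Hox FPKM (%) and the right panel the summed Hox FPKM, 1 point per library by group, with the group mean as a line (circle, square and triangle for replicates 1, 2 and 3; DM in blue, TM in red). All 3 G5DM points lie between 2.57% and 6.31% on the left, below the 13.8% to 41.2% of the other 12 libraries. The cut at paralogue 10 was not among the planned blocks. On the right only G5DM replicate 1, at 10.1 FPKM, stands off.

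The comparison of G5DM with G3DM asks how later generations differ with normal p53. With all libraries, 6 of 35 tested Hox genes fell from G3DM to G5DM and none rose, where 4.98% of all tested genes were called, 1.64% lower and 3.35% higher. All 6, Hoxa10, Hoxa11, Hoxa13, Hoxc9, Hoxc10 and Hoxd13, were among the 16 genes of paralogues 9 to 13, and 0 of 19 genes of paralogues 1 to 8 were called, although 3 of them had an unadjusted p under 0.05 by limma. The median difference was -1.46 for paralogues 9 to 13, -0.87 for paralogues 1 to 8 and -0.09 for all tested genes. All 16 posterior genes were lower in all 3 G5DM libraries than in both G3DM libraries, as were 21 of the 35 in all, against 18.3% of all tested genes.

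Hoxc10, a lumbar and hindlimb gene, showed the largest fall. It was at 6.70 and 4.28 FPKM in the G1DM libraries, 8.06 and 7.19 in G1TM, 10.1 and 12.8 in G3DM, 6.37, 7.47 and 7.73 in G3TM, 0.029, 0.847 and 0.0364 in G5DM, and 7.28, 16.4 and 8.82 in G5TM. All 3 G5DM libraries were below 1 FPKM and all other libraries above 4 FPKM. Its difference between G5DM and G3DM was -3.31 ± 0.32, with a limma adjusted p of 0.00024, and -3.16 ± 0.34 without G5DM replicate 1.

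Hoxa10, which acts in the lumbar spine, the upper hindlimb and the uterus, was at 10.5 and 6.63 FPKM in the G1DM libraries, 8.80 and 7.30 in G1TM, 11.2 and 11.8 in G3DM, 7.06, 4.80 and 6.08 in G3TM, 0, 0.664 and 2.63 in G5DM, and 5.94, 13.6 and 8.92 in G5TM. The highest G5DM library was below the lowest of the other groups. It fell by 2.78 ± 0.43 from G3DM to G5DM (limma adjusted p 0.010), and by 2.35 ± 0.38 without replicate 1.

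Hoxa11, a gene of the forearm, lower leg and kidney, was at 3.75 and 3.65 FPKM in the G1DM libraries, 3.53 and 3.41 in G1TM, 4.24 and 4.87 in G3DM, 3.69, 1.96 and 3.51 in G3TM, 0, 0.182 and 1.08 in G5DM, and 3.62, 7.73 and 4.76 in G5TM. The groups did not overlap with G5DM here either. The fall from G3DM was 2.04 ± 0.32 (limma adjusted p 0.010), and 1.82 ± 0.32 without replicate 1, but 34.98% of the exonic bases of Hoxa11 lie opposite Hoxa11os on the other strand and the labels do not say whether reads were counted by strand, so reads of the pair cannot be told apart. The Hoxa11os row itself fell by 1.12 ± 0.25 (limma adjusted p 0.032), and by 1.04 ± 0.27 without replicate 1.

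Hoxc9, a thoracic gene and neighbour of Hoxc10, was at 4.11 and 1.95 FPKM in the G1DM libraries, 3.85 and 3.18 in G1TM, 6.03 and 6.24 in G3DM, 3.36, 6.76 and 4.44 in G3TM, 0.0456, 1.25 and 1.10 in G5DM, and 5.47, 6.26 and 5.51 in G5TM. G5DM was again the lowest group, with G1DM replicate 2 the next lowest library. The difference from G3DM was -2.07 ± 0.33 (limma adjusted p 0.011) and -1.71 ± 0.27 without G5DM replicate 1.

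When G5DM replicate 1 was left out, the calls were again all posterior. The same 6 genes and, in addition, Hoxb9 and Hoxc11 fell, which made 8 of 16 posterior genes and 0 of 19 others, where 23% of all tested genes were called and 7.87% called lower. The median was -1.33 for paralogues 9 to 13, -0.06 for paralogues 1 to 8 and -0.14 for all tested genes. Leaving out G3DM replicate 1 or 2 left 1 Hox call, Hoxc10, where 12 of 13509 and 22 of 13503 tested genes were called. Fitting only the G3DM and G5DM libraries left 0 of 35, where 0 of 13562 tested genes were called. The Hoxc10 difference was -3.46, -3.15 and -3.31 in these 3 fits.

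**Figure D5:**
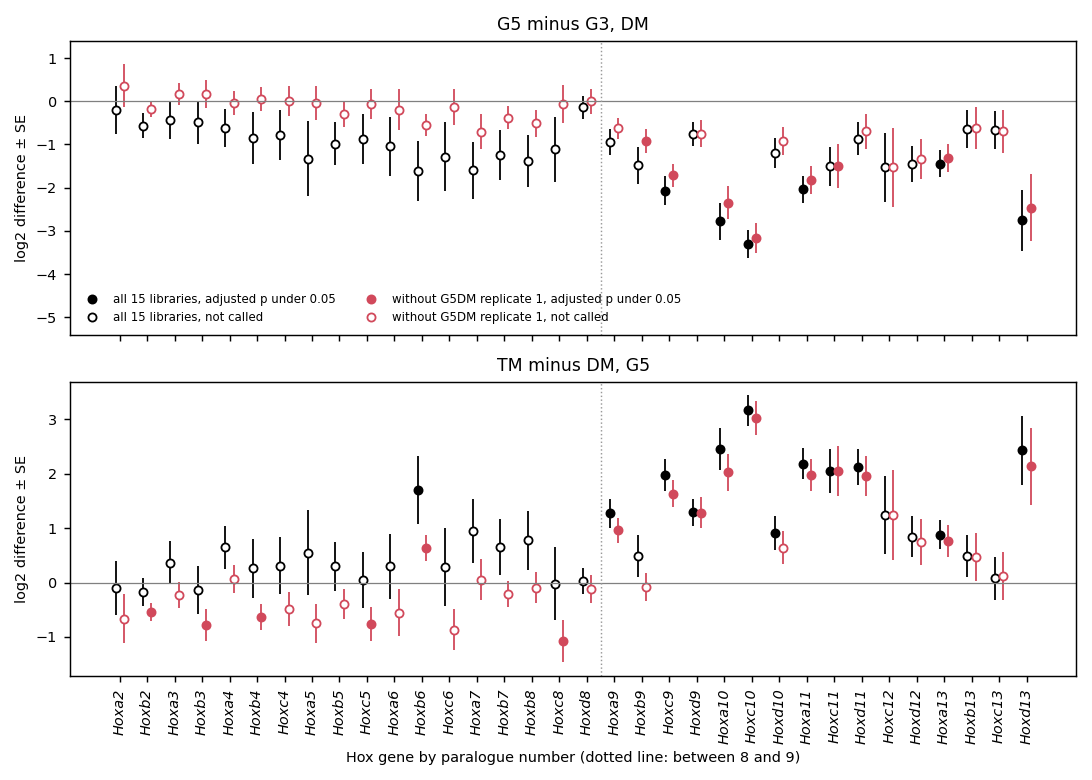
Differences on the log2(FPKM + 1) scale with standard errors (vertical axis) for 34 of the 35 tested Hox genes in order of paralogue number (horizontal axis), for G5 minus G3 in DM (top) and TM minus DM in G5 (bottom), with all 15 libraries in black and without G5DM replicate 1 in red; filled points have a limma adjusted p under 0.05. Right of the dotted line, paralogues 9 to 13, differences are below 0 at the top and, with all libraries, above 0 at the bottom, while the medians of all tested genes of paralogues 1 to 8 without G5DM replicate 1 are -0.06 and -0.48.

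Against G1DM, the other earlier generation with normal p53, 1 of 35 Hox genes fell in G5DM, where 0.059% of all tested genes were called, 8 genes in all, and 0.0516% called lower. It was Hoxc10, with a difference of -2.35 ± 0.32 and a limma adjusted p of 0.015, and -2.20 ± 0.34 without replicate 1. Of the 16 posterior genes, 14 were lower in all 3 G5DM libraries than in both G1DM libraries, and no gene of paralogues 1 to 8 was lower or higher without overlap, where 7.2% of all tested genes were lower and 6.32% higher. The median difference was -1.0 for paralogues 9 to 13 and -0.21 for paralogues 1 to 8, against 0.01 for all genes. Leaving that library out gave the calls Hoxa10, Hoxa11, Hoxa13 and Hoxc10, 4 of 35 against 0.866% of all tested genes. The median of paralogues 1 to 8 turned to 0.43 without that library, with 17 of 19 differences above 0 and none called, and that of paralogues 9 to 13 was -0.84, with 16 of 16 below 0. Without either G1DM library no Hox gene was called, and without G5DM replicate 3 the count was 5. Over all tested genes, 4 were called without G1DM replicate 1 and 4 without G1DM replicate 2.

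Between G1DM and G3DM the levels leaned the other way. No Hox gene was called with all libraries, where 0.214% of all tested genes were called, and 2 Hox genes had an unadjusted p under 0.05 by limma. All 19 differences of paralogues 1 to 8 were above 0, with a median of 0.69 against 0.09 for all genes. Without G5DM replicate 1, which enters this comparison only through the shared spread, 4 genes rose, Hoxa4, Hoxb2, Hoxb6 and Hoxb7, against 2.44% of all tested genes called higher. The difference for Hoxb6, a thoracic gene, was 1.19 ± 0.26 in that fit (limma adjusted p 0.013). The comparisons of G3DM and G5DM with G1DM share the 2 G1DM libraries, and those of G5DM and G1DM with G3DM share the 2 G3DM libraries.

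Between TM and DM in G5, posterior Hox genes were higher with p53 N236S. Of 35 tested genes, 12 were higher in G5TM and 0 lower, where 58.7% of all tested genes were called and 30.3% called higher. They were 11 of 16 genes of paralogues 9 to 13 and 1 of 19 genes of paralogues 1 to 8, so the share of all Hox genes was near that of all genes called higher, and the share of posterior genes above it. The values of Hoxc10, Hoxa11, Hoxc9 and Hoxa10 in all libraries stand above. In each of the 4 the G5TM and G5DM libraries did not overlap, and 29.6% of all tested genes were likewise higher without overlap in G5TM. Hoxc10 differed by 3.16 ± 0.28 (limma adjusted p 6.9e-06), Hoxa11 by 2.19 ± 0.28 (limma adjusted p 7.7e-05), Hoxc9 by 1.98 ± 0.29 (limma adjusted p 0.00018) and Hoxa10 by 2.46 ± 0.38 (limma adjusted p 0.00024). Without G5DM replicate 1 these were 3.02 ± 0.31, 1.97 ± 0.29, 1.63 ± 0.25 and 2.03 ± 0.34. The other posterior genes called were Hoxa9, Hoxa13, Hoxc11, Hoxd9, Hoxd10, Hoxd11 and Hoxd13, with differences from 0.88 for Hoxa13 to 2.43 ± 0.63 for Hoxd13. The median was 1.28 for paralogues 9 to 13 against 0.02 for all genes.

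The remaining gene, Hoxb6, was the only anterior or central one, at 1.70 ± 0.62 (limma adjusted p 0.031). It was at 0.0282, 7.38 and 9.30 FPKM in G5DM and at 13.7, 15.6 and 11.5 FPKM in G5TM, and its difference fell to 0.64 ± 0.24 without G5DM replicate 1. The direction of paralogues 1 to 8 turned with that library. Their median was 0.30 with it and -0.48 without it, and without it 6 of 19 genes, among them Hoxb2, Hoxb3, Hoxb4, Hoxc5 and Hoxc8, were lower in G5TM, while 10 of 16 posterior genes and Hoxb6 were higher. That made 17 of 35 genes called against 65.9% of all tested genes, with 34.3% called higher and 31.6% lower. The 6 of 19 lower genes were thus near the share of all tested genes called lower. The posterior median was 1.27. Hoxc8, another thoracic gene, had the largest of the 6 lower values, -1.07 ± 0.39 (limma adjusted p 0.029), against -0.02 ± 0.67 with all libraries.

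The difference between TM and DM was itself different in G5 and G1 for 9 of 35 Hox genes, all with a larger TM minus DM value in G5, where 19.8% of all tested genes passed and 11.5% did so in that direction. All 9 were posterior: Hoxa9, Hoxa10, Hoxa11, Hoxa13, Hoxc9, Hoxc10, Hoxd9, Hoxd11 and Hoxd13. The interaction was 2.73 ± 0.45 for Hoxc10 (limma adjusted p 0.0030), 2.26 ± 0.45 for Hoxa11 (limma adjusted p 0.0075), 2.33 ± 0.53 for Hoxd11 (limma adjusted p 0.014) and 2.52 ± 0.61 for Hoxa10 (limma adjusted p 0.017). The same 9 genes passed without G5DM replicate 1, with values of 2.59, 2.04, 2.17 and 2.08 for the 4 just named, where 42.6% of all tested genes did. Counts fell when a G1 library was left out, to 3 without G1DM replicate 1, 2 without G1TM replicate 1 and 4 without G1TM replicate 2, and to 5 without G5DM replicate 2. Calls over all tested genes fell too, from 2683 to 856 without G1DM replicate 1 and to 433 without G1TM replicate 1. Hoxc10 and Hoxa11 passed in every alternative in which they were tested.

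In G1 itself no Hox gene differed between TM and DM, where 1.17% of all tested genes were called, and 1 Hox gene had an unadjusted p under 0.05 by limma. The count was also 0 with G5DM replicate 1 left out, against 2.61% of all tested genes. These 4 libraries lie on the same side of the division given above. The median difference was -0.03 for paralogues 9 to 13. In order, 7 Hox genes were higher without overlap in G1TM, 4 of them the neighbours Hoxc10 to Hoxc13, and 6 were lower, among them Hoxa11, Hoxa13, Hoxd9, Hoxd10 and Hoxd11, against 26.4% of all tested genes higher and 23% lower.

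In G3, 1 of 35 Hox genes was called between TM and DM, where 32% of all tested genes were called. It was Hoxb9, whose values stand above and which was lower in all 3 G3TM than in both G3DM libraries, by 1.24 ± 0.43 (limma adjusted p 0.040). Of the 35 genes, 16 were lower without overlap in G3TM and 1, Hoxd11, higher, against 28.2% and 31.6% of all tested genes. With G5DM replicate 1 left out, 7 genes were called lower, Hoxa5, Hoxa13, Hoxb2, Hoxb7, Hoxb9, Hoxc6 and Hoxc8, against 17.4% of all tested genes called lower. Without either G1TM library, either G3DM library, G3TM replicate 2 or G5TM replicate 3 the count was 0, and without G5DM replicate 3 or G5TM replicate 1 it was 2. Over all tested genes, 3929 of 13514 were called without G1TM replicate 1 and 3925 of 13533 without G1TM replicate 2. The interaction of G3 against G1 was called for 0 of 35 Hox genes, against 2.42% of all tested genes, and 1 had an unadjusted p under 0.05 by limma. It was 0 as well with G5DM replicate 1 left out, against 6.04%.

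Within TM, no posterior gene was called lower between generations with all 15 libraries. From G1TM to G5TM, 3 of 35 Hox genes were called, all in HoxD, where 49.5% of all tested genes were called, 26% higher and 23.5% lower. Hoxd11, a forearm and lower leg gene, was at 1.51 and 1.54 FPKM in the G1DM libraries, 1.03 and 1.37 in G1TM, 1.498 and 1.09 in G3DM, 4.65, 1.94 and 3.28 in G3TM, 0, 0.154 and 0.725 in G5DM, and 2.05, 7.35 and 5.50 in G5TM. It rose by 1.33 ± 0.38 from G1TM to G5TM (limma adjusted p 0.012), and all 6 late TM libraries were above every other library, though the count of Hox calls fell to 0 without G1TM replicate 1. In that fit 2898 of 13514 tested genes were called.

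Hoxd9 was at 2.16 and 1.53 FPKM in the G1DM libraries, 1.35 and 1.37 in G1TM, 1.98 and 1.94 in G3DM, 2.06, 3.94 and 1.39 in G3TM, 0.752, 0.584 and 0.943 in G5DM, and 2.07, 4.00 and 4.12 in G5TM. It rose by 0.86 ± 0.28 from G1TM to G5TM (limma adjusted p 0.024), without overlap, where 37.4% of all tested genes were higher without overlap. Hoxd8, a trunk gene next to it, was at 3.43 and 1.76 FPKM in the G1DM libraries, 5.03 and 4.66 in G1TM, 2.66 and 3.02 in G3DM, 2.85, 3.74 and 1.70 in G3TM, 1.86, 2.27 and 3.48 in G5DM, and 2.32, 3.19 and 2.17 in G5TM. Hoxd8 was highest in both G1TM libraries and fell by 0.72 ± 0.27 (limma adjusted p 0.039), so these 2 neighbours moved in opposite directions. Without G5DM replicate 1 the calls were 5, with Hoxa4 and Hoxb6 added, against 56.9% of all tested genes, and 1 without G1TM replicate 2 or without G5TM replicate 3. Without G1TM replicate 2, 4670 of 13533 tested genes were called.

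From G3TM to G5TM no Hox gene was called, where 0.0295% of all tested genes were, 4 genes in all, and 1 Hox gene had an unadjusted p under 0.05 by limma. The count stayed at 0 with G5DM replicate 1 left out, against 0.0296% of all tested genes. No Hox gene was ordered without overlap between these groups, against 2.78% of all tested genes higher and 3.02% lower. From G1TM to G3TM 0 of 35 Hox genes were called, where 46.8% of all tested genes were, and 2 had an unadjusted p under 0.05 by limma. Leaving out G5DM replicate 1 gave 4 calls, Hoxa4, Hoxb6, Hoxb9 and Hoxd8, against 54.7% of all tested genes. Both G1TM libraries had Xist RNA and every G3TM library Y-linked RNA, so generation and sex cannot be told apart here. Over all 6 groups at once, 11 of 35 Hox genes differed, all posterior, against 66.3% of all tested genes, and 20 did without G5DM replicate 1, against 74.8%.

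Among the posterior genes, the last genes of HoxC and HoxB varied widely among replicates of the late TM groups. These 3 genes were chosen after their values were seen. Hoxc12 was at 0.993 and 0.334 FPKM in the G1DM libraries, 3.39 and 1.89 in G1TM, 1.92 and 1.86 in G3DM, 0.0737, 0.0659 and 5.04 in G3TM, 0 in all 3 G5DM libraries, and 0.119, 7.86 and 0.346 in G5TM. Hoxb13, a gene of the tail and prostate, was at 1.82 FPKM in G3TM replicate 3, 1.70 in G5TM replicate 2, 1.25 and 0.717 in G1TM, 0.496 and 0.704 in G3DM, and at most 0.117 FPKM in the other 9 libraries. Hoxc13 was likewise at 1.74 and 1.72 FPKM in those 2 late TM libraries and at most 0.145 FPKM in the other 4. Both late TM groups thus spanned from near 0 to their highest libraries in these genes. Over all tested Hox genes the median standard deviation within groups was 0.55 on the log2 scale, against 0.28 for all tested genes, and 0.38 against 0.24 without G5DM replicate 1.

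The clusters also hold other genes, most of them noncoding, and 9 such genes in HoxA and 7 in HoxB passed the expression minimum. Hotairm1, an antisense RNA of HoxA, was at 1.24 FPKM in G5DM replicate 1 against 1.31 to 4.84 FPKM in the others, lowest of the 15 but close to the next. In HoxB, Gm53 and the host row of Mir196a-1, both beside Hoxb9, were at 2.34 and 5.98 FPKM in that library, within the 1.71 to 11.0 and 3.60 to 25.9 FPKM of the other 14, while Hoxb5os was at 0 against 1.74 to 8.33 FPKM. These 4 were chosen after their values were seen. Of the other tested rows, 5730596B20Rik, Hoxaas3, Gm27477 and Gm11536 were at 0 in G5DM replicate 1 and above 0 in every other library. A 0 allows up to 3 reads. For Hoxaas3, Gm27477 and Gm11536 that limit lies above the lowest of the other libraries, at 0.0456, 0.235 and 0.229 FPKM. Hoxaas2, at 0.0989 FPKM, and Gm15050, at 0.402 FPKM, were also below every other library. Gm27861, at 1.04 FPKM, was within their range. Hoxa11os, Gm27817, Mir10a, Gm27898 and Gm27605 were at 0 in it and in some others. Hoxa11os was higher in G5TM than in G5DM by 1.36 ± 0.23 (limma adjusted p 0.00036), like Hoxa11. Gm53 was lower in G3TM than in G3DM by 1.72 ± 0.34 (limma adjusted p 0.0028) and, like Hoxb9, had no overlap there, where 28.2% of all tested genes were lower without overlap.

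The clusters contain 2 families of miRNA genes, miR-10 beside the Hox4 genes and miR-196 beside the Hox9 genes, and their mature sequences are printed, from RefSeq with build GRCm38.p6, because 2 of their genes, Mir10a and Mir196a-1, passed the expression minimum. The seed, bases 2 to 8, is in capitals.
mmu-miR-10a-5p, chr11:96317186-96317208, + strand: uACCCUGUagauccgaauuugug
mmu-miR-10b-5p, chr2:74726074-74726096, + strand: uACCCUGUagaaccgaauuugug
mmu-miR-196a-5p, chr11:96265187-96265208 and chr15:102973365-102973386, + strand: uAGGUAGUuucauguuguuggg
mmu-miR-196b-5p, chr6:52230129-52230150, - strand: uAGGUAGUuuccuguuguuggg
Both miR-10 members share the seed ACCCUGU and both miR-196 members the seed AGGUAGU. Mature miRNAs have no poly(A) tail, so reads on these rows come from longer transcripts over the hairpin, not from the miRNA. The Mir10a row was at 0 in all 6 G3TM and G5TM libraries and in G5DM replicate 1, and at 2.33 and 0.782 FPKM in the G1DM libraries, 1.12 and 0 in G1TM, 1.42 and 2.82 in G3DM, and 2.94 and 5.37 in G5DM replicates 2 and 3. This row is only 110 bases long, so its values rest on few reads. A 0 allows up to 3 reads, and at this length the values of 0 cannot be told from the lowest of the others. It was lower in G5TM than in G5DM by 1.55 ± 0.52 (limma adjusted p 0.021) and in G3TM than in G3DM by 1.61 ± 0.58 (limma adjusted p 0.050). The 6 late TM libraries are those set apart by Rpl12, though 2 libraries of the other 9 were also at 0, and the part of that division in the result was not tested. Without G5DM replicate 1 the differences were -2.32 ± 0.34 in G5 and -1.61 ± 0.34 in G3. In Hoxb8, the site of miR-196a in the 3′ UTR is printed because Hoxb8 lies next to Hoxb9 and the Mir196a-1 gene in HoxB, with the bases opposite the seed in capitals.
Hoxb8 site, chr11:96284888-96284909, + strand: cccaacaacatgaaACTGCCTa
Over the 22 bases, 21 positions pair with miR-196a and the other is a G to U pair. Hoxb8 was not called in any comparison with all libraries, and was at 3.20 to 9.85 FPKM in the 14 libraries other than G5DM replicate 1.

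Factors that work with or upstream of Hox genes were compared in the same fits. Of the 9 TALE homeodomain cofactors, the Pbx, Meis and Pknox genes that bind DNA with Hox proteins, 0 of 9 were called between G5DM and G3DM or G1DM, with medians of -0.09 and -0.05. Of all tested genes, 4.98% and 0.059% were called in these 2 comparisons, so 0 of 9 is near those shares. In G5DM replicate 1, Meis1 was at 0.931 FPKM against 2.03 to 4.19 FPKM in the other 14. Of 22 tested Polycomb genes, which keep silent Hox genes shut, 1 rose from G3DM to G5DM, Bmi1, by 1.08 ± 0.28 (limma adjusted p 0.046). That is near the 3.35% of all tested genes called higher. Of 10 Trithorax genes, which keep active ones open, 0 were called, where 4.98% of all tested genes were. Without G5DM replicate 1, 2 of 10 Trithorax genes were higher, against 15.2% of all tested genes called higher. Without G5DM replicate 1 the Polycomb count was 7 higher and 1 lower of 22, with Suz12, a core subunit of the methylating complex, at 2.28 ± 0.29 and Mtf2 at 1.85 ± 0.22, against 15.2% of all tested genes called higher. From G5DM to G5TM, 11 of 22 Polycomb genes were higher and 5 lower, against 30.3% and 28.4% of all tested genes.

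Retinoic acid switches on 3′ Hox genes. Of 13 tested genes of its pathway, 3 fell from G3DM to G5DM and none rose, against 1.64% of all tested genes called lower, and the median was -0.57. With all libraries, the 3 were Aldh1a2, the main enzyme of retinoic acid synthesis in the embryo, by 1.73 ± 0.34 (limma adjusted p 0.025), and 2 others. Rdh10, which makes retinaldehyde, fell by 0.91 ± 0.19 (limma adjusted p 0.028), and Dhrs3, which turns it back, by 0.94 ± 0.25 (limma adjusted p 0.050). In the fit that left out G5DM replicate 1, 6 of 13 fell, against 7.87%. From G5DM to G5TM 7 of 13 rose, with and without G5DM replicate 1, against 30.3% and 34.3% of all tested genes called higher, with the receptor gene Rxrb at 1.98 ± 0.29. None of 13 was called between G5DM and G1DM, where 0.059% of all tested genes were. Of the axial activators, Cdx1, Cdx2, Cdx4 and 6 others, 3 of 9 passed the expression minimum and none was called from G1DM or G3DM to G5DM. Of all tested genes, 0.059% and 4.98% were called in these 2 comparisons. Of the 5 tested genes that flank the clusters, none was called from G1DM or G3DM to G5DM with all libraries. Without G5DM replicate 1, 1 of them, Lnpk beside HoxD, rose from G3DM, against 15.2% of all tested genes called higher.

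Of 29 tested positional factors, 1 fell and 1 rose from G3DM to G5DM, against 4.98% of all tested genes called. Tbx4, which marks the hindlimb, was at 3.60 and 3.10 FPKM in the G1DM libraries, 2.14 and 2.78 in G1TM, 4.20 and 4.26 in G3DM, 3.31, 2.00 and 3.91 in G3TM, 0.407, 0.326 and 0.490 in G5DM, and 1.37, 3.14 and 2.24 in G5TM. All 3 G5DM libraries were the lowest of the 15. It fell by 1.90 ± 0.24 from G3DM (limma adjusted p 0.0026) and by 1.63 ± 0.24 from G1DM (limma adjusted p 0.028), with the same values to 2 decimals but standard errors of 0.27 without G5DM replicate 1. Prrx1, a limb mesenchyme gene, rose by 0.99 ± 0.26 from G3DM. With G5DM replicate 1 left out, 4 of 28 fell and 2 rose, against 7.87% and 15.2% of all tested genes. Between G5TM and G5DM, 9 of 29 were higher in G5TM and 4 lower, against 30.3% and 28.4% of all tested genes, and 11 and 5 of 28 without G5DM replicate 1, against 34.3% and 31.6%, with Pitx1, another hindlimb gene, at 3.16 ± 0.66 and Grem1, a BMP antagonist of the limb bud, at -2.78 ± 0.48.

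G5DM replicate 1 differed from its group in these genes too. It held the lowest of 15 values for 4 of 29 positional factors and the highest for 7, against 3.75% and 6.19% of all tested genes. The forelimb gene Tbx5 was at 0.0356 FPKM in it against 0.741 to 2.95 FPKM in the other 14, while Alx4, a gene of craniofacial and anterior limb mesenchyme, was at 13.52 FPKM against 1.83 to 7.20 FPKM and Pax3, a neural crest and somite gene, at 2.28 against 0.0577 to 1.39 FPKM. These 3 were chosen after their values were seen. Its fibroblast markers were within the range of the other 14 libraries for 9 of 10 genes, with Pdgfra, at 6.98 FPKM against 9.21 to 42.1 FPKM, below it. The part of these genes in the low Hox RNA was not tested.

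Markers of other cell types were at the following levels beside the G5DM posterior fall. Calls are for G5DM against G3DM, where 1.64% of all tested genes were called lower and 3.35% higher. All 3 tested epithelial markers of 6 fell from G3DM to G5DM, and their summed level was 3.87 to 5.25 FPKM in G5DM, 36.5 to 48.2 in G3DM, 4.62 to 17.5 in G1DM and 19.5 to 50.3 in G5TM. Of 4 tested cartilage markers 1 fell, or 2 without G5DM replicate 1, where 7.87% of all tested genes were called lower. Cartilage sums were 24.2 to 48.0 FPKM in G5DM, 106 to 150 in G3DM, 60.3 to 83.2 in G1DM and 105 to 263 in G5TM. Macrophage markers, none of 4 called, summed to 41.4 to 71.4 FPKM in G5DM, 20.8 to 21.5 in G3DM, 5.69 to 15.0 in G1DM and 18.5 to 86.9 in G5TM, and Ptprc, the defining gene of white blood cells, was at most 0.108 FPKM in any library. Muscle markers, 1 of 5 called lower, summed to 14.4 to 27.8 FPKM in G5DM, 78.7 to 162 in G3DM, 17.4 to 36.5 in G1DM and 27.1 to 102 in G5TM. Endothelial markers, 1 of 3 called lower, summed to 2.87 to 3.50 FPKM in G5DM, 4.34 to 4.37 in G3DM, 2.22 to 2.47 in G1DM and 0.737 to 1.69 in G5TM. Neural markers summed to 15.8 to 51.8 FPKM in G5DM, 33.2 to 47.1 in G3DM, 27.6 to 32.5 in G1DM and 86.2 to 133 in G5TM. Adipocyte markers summed to 1.49 to 2.24 FPKM in G5DM, 1.91 to 3.72 in G3DM, 2.42 to 3.61 in G1DM and 3.83 to 6.56 in G5TM. The part of all these markers in the Hox differences was not tested.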

How the data were processed

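Polyadenylated RNA of 15 MEF libraries was sequenced, and the authors deposited FPKM per gene for 54495 genes. Tools named, with no role or order, per the submitters' processing notes are HISAT2 2.0.5, fastp, DESeq2 1.20.0, CASAVA 1.8 and featureCounts 1.5.0-p3. The genome build and the strand setting of counting are not given in the sources used here, and gene coordinates are those of the deposited table. FPKM times gene length fell on whole multiples of 1 step per library for nearly all values (tolerance 0.05 of a step), which gave the reads per library. Intervals are not given, and limits from 0 reads cover counting error only.

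Groups came from the labels. Genes with at least 1 FPKM in at least 2 libraries were tested with limma 3.58.1 (R 4.3.3) on log2(FPKM + 1), with 6 group means, an intensity trend and Benjamini-Hochberg adjustment, and the procedure was tested on simulated data. Tables and figures were made with Python 3.11.15, pandas 2.3.3, numpy 2.4.6 and matplotlib 3.10.9. Alternatives were a pseudocount of 0.1, quantile normalization, no filter, a minimum of 5 FPKM, only the groups compared, no trend, the replicate number as a block, and each library left out.

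Named with values in every library were the highest gene of each cluster and up to 4 called genes per comparison with the smallest adjusted p, and from each gene list up to 3 called genes with the largest difference. Exceptions are said to be chosen after their values were seen. The members, lists and libraries that stand apart were chosen with earlier results of these data known. Results of some genes are not reported here.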

Additional observations from a re-analysis of the deposited data

Results flagged for a closer look

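The TM minus DM difference was larger in G5 than in G1 for 9 posterior Hox genes by the interaction term of the limma fit. On the log2(FPKM + 1) scale the interaction was 3.20 for Hoxd13, 2.73 for Hoxc10, 2.52 for Hoxa10, 2.33 for Hoxd11, 2.26 for Hoxa11, 1.77 for Hoxc9, 1.55 for Hoxd9, 1.31 for Hoxa13 and 1.29 for Hoxa9. G5TM and G1TM lie on different sides of the division of libraries by Rpl12, and the part of that division was not tested.

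In 4 of 35 tested Hox genes TM and DM were in opposite order without overlap in G3 and G5. They were lower in all TM libraries in G3 and higher in all TM libraries in G5. Of all tested genes, 28.2% were lower without overlap in G3TM and 29.6% higher without overlap in G5TM. The share of all genes that did both was not computed. The TM minus DM difference moved from G3 to G5 by 3.77 for Hoxc10, 3.31 for Hoxa10, 2.67 for Hoxa11 and 1.68 for Hoxa13 on the log2(FPKM + 1) scale. This difference between G3 and G5 was not tested. All 6 TM libraries of these generations lie on 1 side of the division by Rpl12. In G3 the groups also differ in sex, with Xist RNA in G3DM and Y-linked RNA in G3TM.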

How the results depend on the processing

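The 32 named Hox differences kept their direction in all 690 values under the alternatives, and 126 of these values no longer passed the threshold. Of the 32, 11 were called in every alternative run. Counts of called Hox genes moved as follows, and the cause was not tested. Without the expression filter, the counts were 0 for TM against DM in G3, 1 for G5TM against G1TM and 3 for the G5 interaction. Of all 32611 genes then tested, 3658, 5903 and 1224 were called in these comparisons. With a minimum of 5 FPKM, which tests fewer genes, they were 6 for TM against DM in G5 and 1 for G5TM against G1TM. They were 5 for the G5 interaction and 6 for any difference among groups. Of all 8752 genes then tested, 5647, 5034, 2453 and 6374 were called in these 4 comparisons. With quantile normalization the Hox counts were 4 for G5DM against G1DM and 1 for G3TM against G1TM, where 16 and 6173 of all 13562 tested genes were called. With only the groups compared, the Hox counts were 3 for TM against DM in G3, 0 for G5DM against G1DM and 0 for G5DM against G3DM. They were 2 for G3TM against G1TM and 8 for G5TM against G1TM. Of all 13562 tested genes, 3548, 2, 0, 6116 and 7524 were called in these 5 comparisons. Leaving out 1 library gave 0 to 7 for TM against DM in G3, 9 to 17 in G5, 0 to 4 for G3DM against G1DM, 0 to 5 for G5DM against G1DM, 1 to 8 for G5DM against G3DM, 0 to 4 for G3TM against G1TM, 0 to 5 for G5TM against G1TM, 2 to 10 for the G5 interaction and 10 to 20 for any difference. It gave 0 throughout for TM against DM in G1, G5TM against G3TM and the G3 interaction. Calls over all tested genes moved too. For the G5 interaction they went from 2683 to 433 without G1TM replicate 1 and to 5762 without G5DM replicate 1. The labels do not say whether same-numbered libraries are pairs, and the main fit did not pair them. Same-numbered deviations from group means correlated at 0.042 in G1, -0.34 and -0.29 in G3, and 0.30, 0.32 and -0.018 in G5. Deviations within groups of 2 or 3 libraries are tied to each other, so these values cannot decide the pairing. With the replicate block the counts were 12 for TM against DM in G5, 4 for G5DM against G3DM and 6 for the G5 interaction. Of all 13562 tested genes, 7539, 102 and 1636 were called there. The count test on recovered reads was not run. The 16 genes at 0 reads in G5DM replicate 1 are limited by depth to under 0.0298 to 0.19 FPKM.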
